A study of Mus musculus with 4 samples.

Results

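Conventional CD4 T cells, here T cells with *Cd4* transcripts and no *Foxp3* transcript, were examined among immune cells that infiltrated mouse melanomas. A cell was a member if it held at least 1 unique molecular identifier (UMI, 1 captured RNA molecule) of *Cd4*, none of *Cd8a*, *Cd8b1* or *Foxp3* and at least 3 of the CD3 genes *Cd3d*, *Cd3e* and *Cd3g*. It also held at most 3 UMIs of the macrophage genes *C1qa*, *C1qb* and *Lyz2*, and fewer than 3 of the cycling genes *Mki67* and *Top2a*. This gave 140 members among 11649 cells kept from 14137 barcodes. The comparison types passed the same limits and were 1373 CD8 T cells with a *Cd8a* or *Cd8b1* UMI and neither *Cd4* nor *Foxp3*, and 134 Foxp3+ cells with a *Foxp3* UMI and no CD8 UMI, with or without *Cd4*. The members were thus chosen by the UMIs of these 12 genes, and the levels of those genes describe the gate and were not tested.

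The cells came from C57BL/6 mice with subcutaneous B16-F10 tumors, grown from 1 clone that makes the green fluorescent protein ZsGreen (ZsG) under doxycycline, which the mice drank before tumors were taken on day 8. ZsG inside an immune cell marks material made by tumor cells. CD45+ immune cells gave a library without ZsG and another with it, and sorted CD45+ TCRβ+ T cells gave a second such pair. The ZsG-positive gate of the CD45 sort took only bright cells, so dimly positive lymphocytes can lie in its ZsG-negative library. Each condition was 1 droplet library. The sources used here do not give how many mice made up a library or whether libraries shared tumors.

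Helper T cells recognize peptide on MHC class II through the T cell receptor with CD4 as coreceptor. They direct other immune cells through cytokines and through surface molecules such as CD40 ligand, which licenses dendritic cells and B cells. In tumors they share the CD4 compartment with Foxp3+ regulatory T cells, which restrain immune responses through CTLA-4, IL-10 and a high-affinity IL-2 receptor, and with CD8 T cells, which kill with perforin and granzymes and attract other cells with chemokines.

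The members were few and unevenly spread. The ZsG-negative CD45 library held 43, the ZsG-positive CD45 library 3, the ZsG-negative T cell library 56 and the ZsG-positive T cell library 38. Their summed depth was 266935, 13153, 284225 and 150686 UMIs, and their median depth was 4966, 4509, 4436.5 and 3868 UMIs per cell. CD8 T cells were deeper in every library except the ZsG-positive CD45 library, with medians of 6719, 4131, 6124 and 6437 UMIs, and the medians of Foxp3+ cells were 6347.5, 8698.5, 5438 and 5643. Because the gate asks for absent transcripts, results were also computed after each cell was thinned to 2000 UMIs. The 3 members of the ZsG-positive CD45 library are given only where named. No member's barcode occurred in a second library.

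Many members sat at the edge of the *Cd4* limit. Exactly 1 *Cd4* UMI was found in 18, 2, 28 and 28 members in the order of libraries just given, 2 UMIs in 13, 0, 17 and 9, and 3 or more in 12, 1, 11 and 1. The CD3 limit of 3 UMIs was just met by 1, 1, 4 and 1 members, and 1 cell of the ZsG-negative T cell library fell just short of it with 2. Cells that met every other limit were left out for a CD8 UMI in 11, 0, 2 and 5 cases and for a *Foxp3* UMI in 13, 4, 9 and 47 cases, of which 3, 2, 2 and 13 had exactly 1 *Foxp3* UMI. Among Foxp3+ cells only 54.5% had a *Cd4* UMI (exact binomial 95% interval 45.7 to 63.1%), so a CD4 T cell whose *Cd4* transcript was not captured can fall outside the gate, among T cells with no *Cd4*, CD8 or *Foxp3* UMI.

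The ZsG labels of the T cell sort are ambiguous. The order of the libraries in the record's description puts ZsG-positive on the library with 2396 barcodes, whereas the order of the library names puts it on the library with 1136. The first order was used. Under the other order the T cell libraries exchange their ZsG labels and each log2 ratio of ZsG-positive over ZsG-negative changes sign, while comparisons between cell types stay as they are.

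Cells that met the conventional CD4 gate were a small share of T cells in all libraries. They made up 3.57% of 1203 T cells that passed the CD3, macrophage and cycling limits in the ZsG-negative CD45 library (2.60 to 4.79%) and 4.0% of 75 in the ZsG-positive CD45 library (0.833 to 11.3%). In the T cell sort they made up 9.26% of 605 ZsG-negative cells (7.07 to 11.9%) and 6.16% of 617 ZsG-positive cells (4.40 to 8.36%). T cells with no *Cd4*, CD8 or *Foxp3* UMI were 555 of 1203 ZsG-negative and 27 of 75 ZsG-positive cells in the CD45 sort. In the T cell sort such cells were 121 of 605 and 104 of 617. How many of them were CD4 T cells was not tested, so the shares of members describe the gate and not all conventional CD4 T cells. The log2 ratio of ZsG-positive over ZsG-negative shares was -0.59 in the T cell sort, with an exact conditional 95% interval of -1.22 to 0.03 that covers counting error only, and 0.16 (-2.17 to 1.81) in the CD45 sort. Neither interval left out 0 with these limits, and with 1 library per gate there was no test. The ratio of the T cell sort was -1.51 (-2.72 to -0.43) when members had to hold at least 2 *Cd4* UMIs and -1.18 (-1.99 to -0.42) with a mitochondrial limit of 5%, but -0.28 (-1.06 to 0.49) after thinning.

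Beside Foxp3+ cells, conventional cells were fewer in the ZsG-positive than in the ZsG-negative library of the T cell sort, a comparison of 1 library with 1 library and without a test. Foxp3+ cells were 3.80% of ZsG-negative and 13.1% of ZsG-positive T cells in the T cell sort, a log2 ratio of 1.79 (1.11 to 2.52), and CD8 T cells were 65.8% and 60.9%, a ratio of -0.11 (-0.32 to 0.10). There were 56 conventional to 23 Foxp3+ cells in the ZsG-negative and 38 to 81 in the ZsG-positive T cell library, a log2 odds ratio of -2.36 (-3.34 to -1.42). In the CD45 sort the counts were 43 to 26 and 3 to 4, a log2 odds ratio of -1.13 (-4.01 to 1.56), and the log2 ratio of Foxp3+ shares was 1.30 (-0.68 to 2.83). A Foxp3+ cell whose *Foxp3* transcript was not captured counts as conventional, so these numbers depend on depth. With cells thinned before gating, the T cell sort gave -1.5 (-2.66 to -0.37) and the CD45 sort 1.66 (-1.67 to 7.33).

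**Figure D1:**
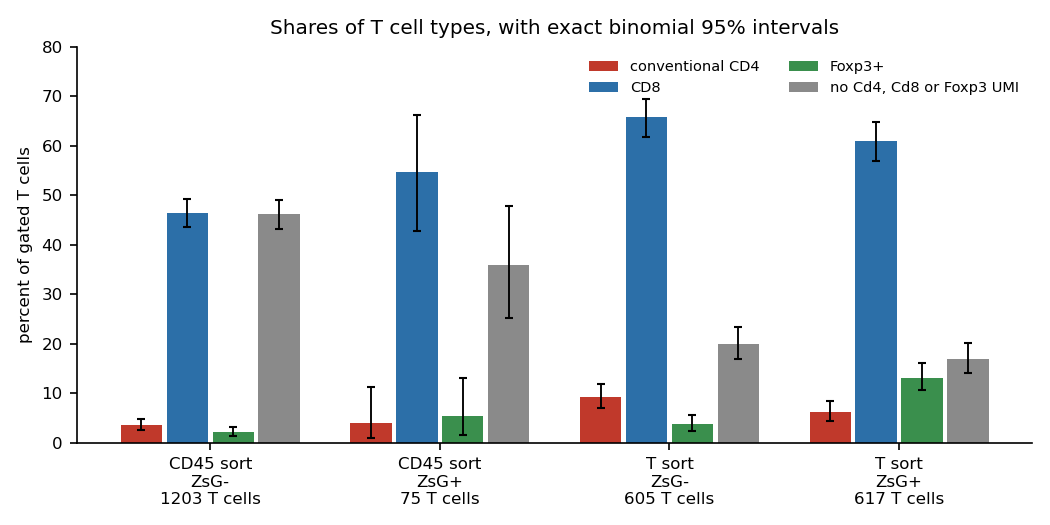
Share of gated T cells (percent, vertical axis) that were conventional CD4, CD8, Foxp3+ or without a *Cd4*, CD8 or *Foxp3* UMI, in each of the 4 libraries. Bars are shares of 1 library and lines are exact binomial 95% intervals for counting error, with conventional CD4 cells between 3.57% and 9.26% and the Foxp3+ share highest, at 13.1%, in the ZsG-positive T cell library.

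*Cd40lg* and *Ramp3* set the members apart from other T cells, but each was captured in a minority of members. Both had been proposed as markers from these cells, so their values are given without a p-value, although the fit included both. *Cd4* (GRCm38 chromosome 6, 124864692 to 124888221, minus strand) was at 363, 380, 345 and 325 CPM (UMIs of the gene per 1000000 UMIs of the same cells) in the ZsG-negative CD45, ZsG-positive CD45, ZsG-negative T cell and ZsG-positive T cell libraries. *Cd40lg* (chromosome X, 57212143 to 57224042, plus strand), which encodes CD40 ligand, was at 63.7, 228, 151 and 166 CPM in members. In CD8 T cells it was at 2.19, 0, 4.28 and 4.20 CPM, below the members of every library, and in Foxp3+ cells at 0, 0, 8.22 and 12.8 CPM. A *Cd40lg* UMI was found in 46.4% of members (38.0 to 55.1%), 1.53% of CD8 T cells and 5.97% of Foxp3+ cells. In 3562 macrophage-like cells with at least 10 *C1qa*, *C1qb* and *Lyz2* UMIs, which should lack the gene and had median depths of 8460, 10049, 12688 and 10867 UMIs by library, there was none, which allows a share of up to 0.0842%.

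*Ramp3* (chromosome 11, 6658521 to 6677475, plus strand) encodes a single-pass membrane protein that pairs with the calcitonin receptor-like receptor to form an adrenomedullin receptor. Members held 206, 912, 186.5 and 345 CPM in the same order of libraries, where the second value is 12 UMIs in 1 cell. CD8 T cells were at 14.3, 24.4, 11.4 and 14.5 CPM and Foxp3+ cells at 34.0, 0, 41.1 and 35.1 CPM, so members were above both types in every library. The gene was seen in 35.7% of members, 5.75% of CD8 T cells, 9.70% of Foxp3+ cells and 2.83% of macrophage-like cells. Its partner receptor gene *Calcrl* was seen in only 1.43% of members, against 3.28% of CD8 T cells. *Ramp1* (chromosome 1, 91179822 to 91225196, plus strand), a relative that forms the CGRP receptor with the same partner, was seen in 11.4% of members, 33.6% of Foxp3+ cells and 23.1% of macrophage-like cells, so its share in members lay below that of the macrophages. *Ramp2* had no UMI in members, and 0 of 140 cells allows a share of up to 2.14% of cells with a UMI, which does not limit the share that express it.

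A *Cd40lg* or *Ramp3* UMI was found in 95 of 140 members, or 67.9% (59.5 to 75.5%). By library this was 60.5%, 66.7%, 76.8% and 63.2%. The share was 7.21% in CD8 T cells, 14.2% in Foxp3+ cells and 2.84% in macrophage-like cells. It was 12% among the 807 T cells with no *Cd4*, CD8 or *Foxp3* UMI. The genes did not mark the same cells, since 20 members held both, 45 only *Cd40lg*, 30 only *Ramp3* and 45 neither. *Ramp3* was seen in 30.8% of members with and 40.0% of members without a *Cd40lg* UMI, and after thinning in 28.1% and 24.3%. *Zbtb7b*, the transcription factor ThPOK that fixes the CD4 fate in the thymus, was seen in 13.6% of members and 23.9% of Foxp3+ cells but 3.93% of CD8 T cells. It was also in 31.0% of macrophage-like cells, above its share in members.

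**Figure D2:**
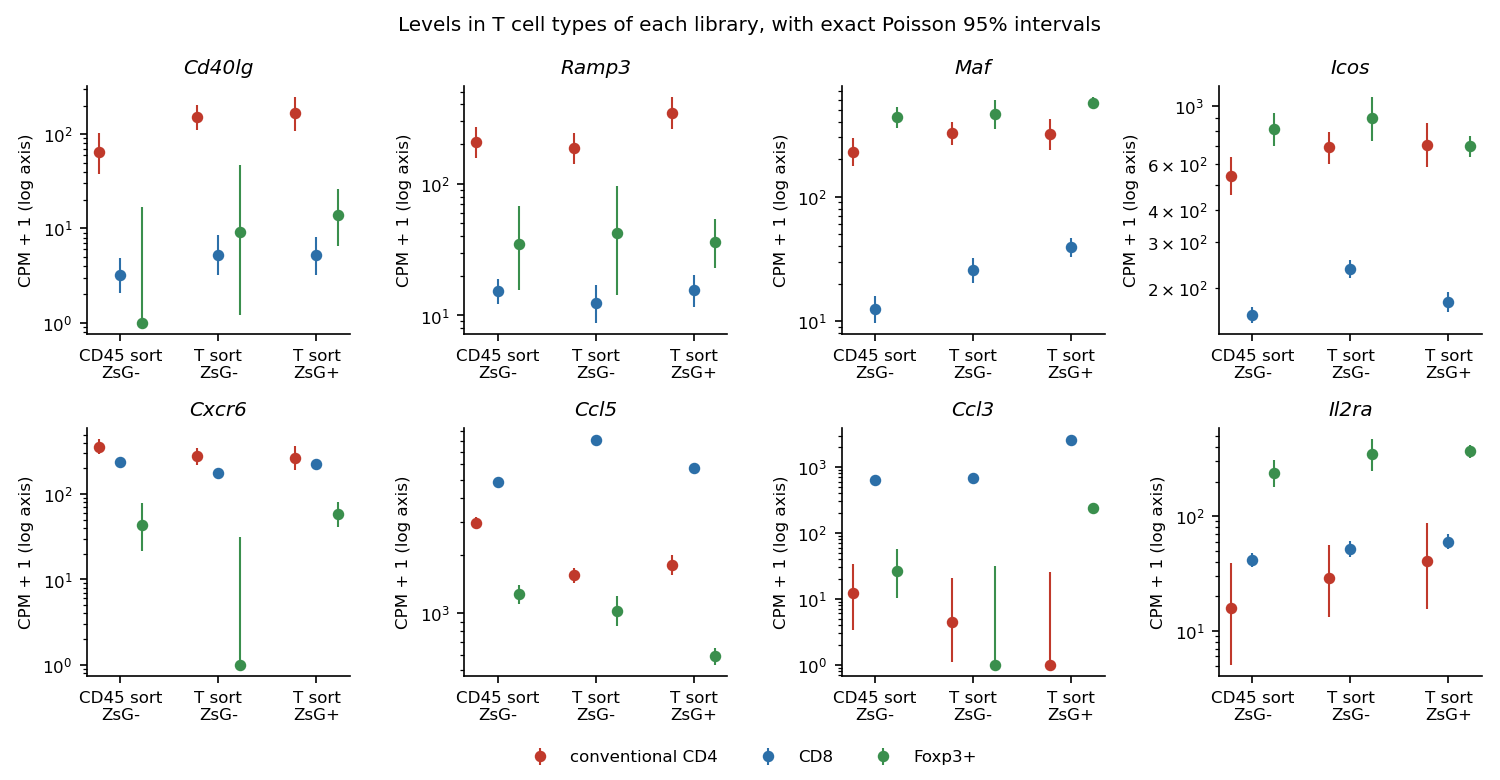
Levels of 8 genes (CPM plus 1, log axis) in conventional CD4, CD8 and Foxp3+ cells of the 3 libraries with at least 20 members. Points are sums over the cells of 1 library, and lines are exact Poisson 95% intervals for counting error. Members lie highest of the 3 types for *Cd40lg* and *Ramp3*, near Foxp3+ cells for *Maf* and *Icos*, near CD8 T cells for *Cxcr6* and lowest or near lowest for *Ccl3* and *Il2ra*.

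Markers of several other lineages were scarce in members. Of 5 pigment genes of melanocytes, only *Dct* was seen, with 2 UMIs in the ZsG-positive T cell library, and the hemoglobin genes had none. Gamma-delta T cell genes had 0, 0, 3 and 5 UMIs, and NKT cell genes 1, 0, 3 and 0. The 17 macrophage genes outside the gate summed to 450, 2205, 440 and 398 CPM, led by *Ctss* or *Cst3*, against 846, 4023, 585 and 648 CPM in CD8 T cells and 3965, 1078, 550 and 1656 CPM in Foxp3+ cells. The 9 NK cell genes summed to 757, 0, 574 and 113 CPM. In CD8 T cells they summed to 1015, 683, 1109 and 825 CPM and in Foxp3+ cells to 745, 87.4, 8.22 and 20.7 CPM. *Gzma* held most of the members' sum in the ZsG-negative libraries. Of its UMIs, 1 cell each held 135 of 157 in the CD45 library and 58 of 107 in the T cell library. The B cell list stood at 82.4, 76.0, 52.8 and 133 CPM, nearly all of it *Ighm*. The dendritic cell list, nearly all of it *Bst2*, stood at 292, 456, 577 and 445 CPM, against 270, 305, 470 and 483 CPM in CD8 T cells. CD8 lineage genes outside the gate summed to 626, 76.0, 450 and 405 CPM, against 1521, 1386, 1236 and 1460 CPM in CD8 T cells.

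Members varied in transcripts of the regulatory program, with *Ctla4* in 52.9% and the regulatory marker *Ikzf2* in a minority. *Ikzf2*, which encodes Helios, was at 97.4, 0, 88.0 and 139 CPM over the 4 libraries and was seen in 26 of 140 members, or 18.6%, against 94.8% of Foxp3+ cells, 39.5% of CD8 T cells and 4.38% of macrophage-like cells. Of its UMIs, 13 of 25 in the ZsG-negative and 12 of 21 in the ZsG-positive T cell library came from 1 cell each. A regulatory T cell whose *Foxp3* transcript was not captured would pass the gate. Without the *Ikzf2*-positive members the log2 share ratio of the T cell sort was -0.67 (-1.36 to -0.00355), an interval that left out 0.

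Compared with CD8 T cells, members had less of the chemokine and killing genes and more of the helper and follicular helper genes. UMIs were summed over the cells of each type in the 3 libraries that held at least 20 members. The sums were tested with edgeR's quasi-likelihood test with the library as a block, and p-values were adjusted by Benjamini-Hochberg over 3881 genes. At an adjusted p under 0.05, 203 genes were higher in members (5.23% of those tested) and 249 lower (6.42%). The median log2 fold change of all genes was 0.01. Without TMM scaling that median was 0.11 and the split 302 higher to 178 lower. The p-values measure only how differences between cell types varied over these 3 libraries, which differed in sort or ZsG gate. They do not measure a spread between replicates of a condition. The 452 calls fell to 290, 181 and 224 when the ZsG-negative CD45, the ZsG-negative T cell or the ZsG-positive T cell library was left out. They fell to 133 with at least 2 *Cd4* UMIs asked of members and to 228 after thinning. All CPM in the comparisons of cell types refer to the genes listed in both matrices and are given for the ZsG-negative CD45, ZsG-negative T cell and ZsG-positive T cell libraries, in that order.

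Chemokine genes led the decreases against CD8 T cells. *Ccl3* (chromosome 11, 83647844 to 83649355, minus strand), a chemokine that attracts macrophages and T cells, was at 11.3, 3.52 and 0 CPM in members, 4 UMIs in all, and at 628, 673 and 2578 CPM in CD8 T cells. The ratio of the pooled levels was 0.00479 (exact conditional interval 0.00130 to 0.0123, counting error only), with an edgeR log2 fold change of -7.65 ± 0.49 (SE, n = 3 libraries) and an adjusted p of 2.91e-08 over all genes fitted. *Ccl4*, a close relative, was at 56.4, 84.5 and 26.6 CPM against 1268, 1753 and 3908 CPM. *Xcl1*, which draws cross-presenting dendritic cells, was at 22.6, 70.4 and 13.3 CPM against 685, 453 and 3950 CPM. The log2 fold changes of *Ccl4* and *Xcl1* were -5.15 and -4.86. *Ccl5* was lower in members too (-1.71), though it remained abundant at 2975, 1574 and 1780 CPM. Of 6 chemokine genes tested 4 were called lower and none higher, with a median log2 fold change of -3.29.

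Killing genes were lower as a group, with 5 of 8 called lower and none higher (median -1.53). *Prf1*, which encodes perforin, was at 22.6, 24.7 and 13.3 CPM in members and 377, 182 and 293.5 CPM in CD8 T cells, a log2 fold change of -3.78 ± 0.38. *Gzmb* was at 399, 239 and 372 CPM against 1218, 1482 and 1692 CPM (-2.19), and *Gzmk* (-2.0), *Nkg7* (-1.54) and *Ctsw* (-1.52) were also lower. *Fasl*, the death ligand that acts without granules, was at 124, 151 and 173 CPM against 102, 122 and 98.1 CPM, and its change of 0.34 was not called (edgeR adjusted p = 0.41). *Ifng* was at 105, 120 and 79.7 CPM in members and 449, 894 and 4263 CPM in CD8 T cells (-3.59 ± 0.38, adjusted p = 1.21e-05). The share of cells with an *Ifng* UMI was close in both, 25.7% and 31.0%, so the groups differed in *Ifng* UMIs per cell far more than in the share of cells with 1 or more.

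Several inhibitory receptor genes were lower than in CD8 T cells and *Ctla4* was higher. Among 7 inhibitory receptor and exhaustion genes 5 were called lower, among them *Cd160* (-3.31), *Havcr2* (-3.21), which encodes TIM-3, and *Lag3* (-1.92), together with *Rgs16* and the transcription factor gene *Tox* (list median -1.92). With at least 2 *Cd4* UMIs asked of members 1 of 6 was called lower (median -0.71), and after thinning only 2 could be tested, neither of them lower. *Havcr2* was at 15, 0 and 6.64 CPM in members against 80.2, 42.8 and 68.5 CPM in CD8 T cells. *Pdcd1*, which encodes PD-1, was not different by the test, at 233, 169 and 119.5 CPM against 230.5, 132 and 215 CPM (-0.16 ± 0.24). *Ctla4* was higher in members, at 259.5, 380 and 398 CPM against 129, 135 and 153 CPM (1.19).

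The other genes with the largest decreases against CD8 T cells were *Zbtb32*, a repressor of lymphocyte proliferation (-2.70), *Gpatch4* (-2.61) and *Tm6sf1* (-2.57). *Gpatch4* lost its call without the ZsG-negative T cell library (-1.83, adjusted p = 0.11).

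Helper genes rose against CD8 T cells. Of 7 helper genes tested 5 were higher and none lower, with a median of 1.04, and 3 of 7 were called with at least 2 *Cd4* UMIs asked of members. *Icos*, a costimulatory receptor, was at 542, 694 and 711 CPM in members and 158, 237 and 177 CPM in CD8 T cells, a log2 fold change of 1.67 ± 0.16. *Slamf1* (1.77), *Tnfrsf4*, which encodes OX40 (1.04), *Cd5* (0.95) and *Cd28* (0.70) were the others called. The call of *Cd28* was lost without the CD45 library (0.67, adjusted p = 0.070). *Tnfsf8*, the ligand of CD30, was at 79.0, 56.3 and 59.8 CPM against 29.9, 30.0 and 21.3 CPM, and its change of 1.11 was not called (adjusted p = 0.091).

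Follicular helper genes were higher too, with 4 of 5 called and none lower (median 1.75). After thinning 1 of 4 was called, and with at least 2 *Cd4* UMIs asked of members 2 of 5. *Maf* (chromosome 8, 115682942 to 115707794, minus strand), which encodes c-Maf, was at 229, 324 and 319 CPM in members and 11.6, 24.6 and 38.4 CPM in CD8 T cells. Its log2 fold change was 3.55 ± 0.24 (adjusted p = 4.36e-08), and it was 3.80 when only cells without a *C1qa*, *C1qb* or *Lyz2* UMI were used. *Tbc1d4*, which regulates glucose transporter traffic, was at 71.5, 134 and 126 CPM against 20.4, 9.28 and 12.6 CPM (2.83), and *Izumo1r* (1.75) and *Slamf6* (0.80) were also higher. The genes that define follicular helper cells were seen in few members, *Cxcr5* in 3, *Bcl6* in 5 and *Il21* in 1 of 140 members.

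The remaining genes with the largest increases over CD8 T cells, by size, were the keratin gene *Krt83*, the carboxypeptidase gene *Cpm*, *Trat1*, *Ifitm2*, *Serpinb1a*, *Socs2*, *Zdhhc23* and *Casp4*. *Krt83* was at 22.6, 148 and 66.4 CPM in members and 2.39, 5.00 and 4.84 CPM in CD8 T cells (3.98 ± 0.49). *Trat1*, an adaptor that stabilizes the T cell receptor, was at 45.1, 102 and 186 CPM against 6.59, 17.1 and 10.7 CPM (3.05). *Serpinb1a* (2.93) and *Socs2* (2.76) were not called without the ZsG-negative T cell library (adjusted p = 0.088 and 0.096). *Zdhhc23* (2.66) was not called without the CD45 library (0.077) or the ZsG-positive T cell library (0.25). *Casp4*, the inflammatory caspase-11, was at 52.7, 102 and 106 CPM against 11, 14.3 and 27.4 CPM (2.24).

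Several other groups differed from CD8 T cells in some of their genes. Of 17 immediate early genes 7 were higher, namely *Egr1* (1.42), *Fosb* (1.25), *Dusp1* (1.16), *Fos* (1.14), *Junb* (0.94), *Nr4a1* (0.84) and *Tnfaip3* (0.58), while *Irf4* (-1.31) and *Nr4a2* (-1.31) were lower. Of 15 interferon-induced genes 4 were higher, led by *Ifi27l2a* at 2343, 4007 and 4250 CPM against 799, 1422 and 1519 CPM (1.41) and *Ifit1* (1.19), and 2 were called after thinning, with at least 2 *Cd4* UMIs, without cells that held a *C1qa*, *C1qb* or *Lyz2* UMI, or by DESeq2. *Il7r*, the IL-7 receptor of resting and memory cells, was at 399, 880 and 551 CPM against 213, 336 and 127 CPM (1.32). *Klf2*, which drives the egress receptor *S1pr1*, was also higher (1.01), whereas *Dapl1* was lower (-1.44), and of 12 resting genes 2 rose and 2 fell. Residence and adhesion genes *Rgs1* (1.25) and *Itgb7* (1.24) were higher. Of 15 regulatory genes 4 were higher, among them *Tnfrsf18* (0.78) and *Capg* (0.94), and 3 lower, *Ikzf2* (-1.44), *Il2ra* (-1.03) and *Tnfrsf9* (-1.20). *Ramp1* was higher (1.71), but not when cells with a *C1qa*, *C1qb* or *Lyz2* UMI were left out (1.18, adjusted p = 0.12) or without the ZsG-negative T cell library (1.56, 0.084).

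Heat shock genes were lower than in CD8 T cells, while few metabolic genes were called. Of 9 heat shock genes 5 were lower, 3 of 8 with at least 2 *Cd4* UMIs asked of members, led by the mitochondrial chaperonin genes *Hspd1* (102, 106 and 113 CPM against 310, 267 and 421 CPM, -1.71) and *Hspe1* (-1.34). Of 26 cytosolic ribosomal protein genes 7 were lower (median -0.30), a number that was 3 without TMM scaling, 18 after thinning to 2000 UMIs and 0 with at least 2 *Cd4* UMIs asked of members (median -0.29). Only 1 of 18 oxidative phosphorylation genes and 1 of 13 glycolysis genes, *Pgam1*, was called, both lower and close to the share of all genes called lower, with medians of -0.28 and -0.13. The glycolysis median was 0.17 with at least 2 *Cd4* UMIs asked of members. Of 15 antigen receptor signaling genes only *Lat* was called, higher at 0.57. Macrophage genes were lower in members for 4 of the 6 tested, *Cd74*, *Fcer1g*, *H2-Aa* and *Tyrobp*. Among cells with no *C1qa*, *C1qb* or *Lyz2* UMI none of the 5 that could be tested was called, and DESeq2 called 1 of 6. CD8 lineage genes outside the gate (4 of 6) and NK cell genes (2 of 4) were also lower, with none higher, but DESeq2 called 1 of 6 and 0 of 4. Of 6 chemokine receptor genes 1 rose, *Cxcr3* (1.00), and 1 fell.

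Compared with Foxp3+ cells, members had less of the regulatory genes and more of the type 1 helper, resting and memory genes. The same fit called 177 genes higher in members (4.56%) and 162 lower (4.17%), with a median over all genes of 0.01. Without TMM scaling the median was -0.06 and the split 134 higher to 197 lower. The 339 calls fell to 156 and 139 without the ZsG-negative and the ZsG-positive T cell library and to 76 with at least 2 *Cd4* UMIs asked of members. They rose to 414 without the 5% of cells with the most UMIs and to 393 without *Ikzf2*-positive members.

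All regulatory genes tested except *Nrp1* were lower, 14 of 15 with a median of -3.44, and 9 of 14 with at least 2 *Cd4* UMIs asked of members. The gate that made the groups used *Foxp3*, and genes known to go with it describe that gate. *Ikzf2* was at 97.8, 88.0 and 139.5 CPM in members against 1311, 1529 and 1307 CPM (-3.70 ± 0.26). *Il2ra*, the high-affinity IL-2 receptor chain, was at 15, 28.2 and 39.8 CPM against 239, 345 and 366 CPM (-3.49). *Areg*, a tissue repair factor of regulatory cells, was at 37.6, 21.1 and 0 CPM against 999, 411 and 618 CPM (-4.78). *Klrg1* (-3.83), *Tnfrsf9* (-2.98), *Tnfrsf4* (-2.71), *Ctla4* (-1.97) and *Tnfrsf18* (-1.40) followed. In members *Il10* had 3 UMIs, *Lrrc32*, which encodes the TGF-β docking protein GARP, had 2 and *Itgb8* had 1. Their ratios to the level in Foxp3+ cells were 0.0401 (0.00813 to 0.120), 0.0364 (0.00433 to 0.136) and 0.0292 (0.000725 to 0.171), with intervals for counting error only. *Itgb8* was not called without either T cell library (adjusted p = 0.12 and 0.39). *Neb*, with 2 UMIs in members and a ratio of 0.0438 (0.00520 to 0.165), was not called without the ZsG-positive T cell library (0.12).

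Some of the genes lower than in Foxp3+ cells belong to other lineages. *Igkc*, the immunoglobulin kappa constant gene of B cells, had 1 UMI in members and stood at 111, 214 and 104 CPM in Foxp3+ cells, a ratio of 0.0120 (0.000301 to 0.0681). The B cell list summed to 485, 146, 501 and 373 CPM in Foxp3+ cells over the 4 libraries. *Cd74*, the MHC class II invariant chain, was at 41.4, 10.6 and 26.6 CPM against 1230, 82.2 and 303 CPM (-4.24). Macrophage genes as a list were lower in 4 of 6 tested, in 2 of 6 by DESeq2, and in 3 of 5 among cells with no *C1qa*, *C1qb* or *Lyz2* UMI. The part of B cell RNA in these results was not tested.

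Of 11 type 1 helper genes 6 were higher than in Foxp3+ cells and none lower, with a median of 1.35. *Cxcr6*, the receptor for the chemokine CXCL16, was at 361, 278 and 266 CPM in members and 42.7, 0 and 57.5 CPM in Foxp3+ cells (2.91 ± 0.31, adjusted p = 1.73e-05). It did not differ by the test from CD8 T cells, which were at 239, 177 and 227 CPM (0.42). *Ly6c2* (1.71), *Il18r1* (1.41), *Ccl5* (1.25), *Stat4* (1.12) and *Bhlhe40* (1.01) were the others called. With at least 2 *Cd4* UMIs asked of members the change of *Ccl5* was 0.13. *Ifng* was at 21.4, 16.4 and 83.0 CPM in Foxp3+ cells, below members in the ZsG-negative libraries but not in the ZsG-positive T cell library, and its change of 1.85 was just short of the threshold (adjusted p = 0.053). Without the ZsG-positive T cell library it was 2.49 (adjusted p = 0.0063). *Cxcr3* was alike in level, at 177, 218 and 199 CPM against 120, 173 and 190 CPM (0.34, not called). CD8 lineage genes outside the gate also lay above Foxp3+ cells, 6 of 6 above 0 and 1 called higher (median 1.47). NK cell genes had a median of 1.61, with 3 of 4 above 0 and none called. After thinning 3 of 4 CD8 lineage and 2 of 2 NK cell genes were called higher. With at least 2 *Cd4* UMIs asked of members the medians of these lists were 0.19 and -1.89.

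Of 12 resting and memory genes 9 were higher than in Foxp3+ cells and 1 lower, with a median of 1.51. With at least 2 *Cd4* UMIs asked of members the median was 1.47 but only 2 of 11 were called higher, and after thinning 4 of 10. *Tcf7*, which encodes the memory and stemness factor TCF-1, was at 135, 169 and 232 CPM in members against 59.8, 0 and 9.58 CPM (2.98). *Bach2*, a repressor that keeps T cells undifferentiated, had 21 UMIs in members and 1 in Foxp3+ cells (ratio 29.5, 4.74 to 1218). *Dapl1* had 18 and 0 UMIs, at least 8.41-fold higher against a floor of 3 counts over the 3 Foxp3+ sums. *Klf3* (2.20), *Satb1* (1.71), *S1pr1* (1.57), *Klf2* (1.45), *Il7r* (1.17) and *Foxp1* (0.92) were higher as well. The call of *Bach2* was lost without the ZsG-positive T cell library (3.6, adjusted p = 0.079), that of *Tcf7* with at least 2 *Cd4* UMIs asked of members (1.61, 0.15), and that of *Il7r* without the ZsG-negative T cell library (0.95, 0.19) and after thinning to 2000 UMIs (0.82, 0.052).

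Other genes led the increases over Foxp3+ cells. *Fasl* was at 29.9, 0 and 6.39 CPM in Foxp3+ cells (3.69 ± 0.45). *Bcl2*, which protects resting cells from apoptosis, was at 90.3, 91.5 and 113 CPM in members against 25.6, 0 and 4.79 CPM (3.20). *Themis*, a regulator of T cell receptor signals, was at 143, 127 and 93 CPM against 12.8, 49.3 and 7.98 CPM (3.08). The phosphodiesterase genes *Pde3b* (3.17) and *Pde7a* (2.82) and the CD30 ligand gene *Tnfsf8* (2.83) were also among the 10 largest. *Pde7a* lost its call without the ZsG-positive T cell library (1.69, adjusted p = 0.099), *Pde3b* without either T cell library (2.71 and 2.13) and *Tnfsf8* likewise (2.70 and 1.72).

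Other groups were lower or split. Of 7 helper genes 3 were higher, *Tnfsf8*, *Slamf1* (1.06) and *Cd28* (0.72), and *Tnfrsf4* was lower. With at least 2 *Cd4* UMIs asked of members none of the 7 was called higher, and after thinning 1 of 6. *Icos* and *Maf* were not called, at 816, 896 and 701 CPM and 436, 460 and 565 CPM in Foxp3+ cells (-0.25 and -0.66), so the test did not separate members from Foxp3+ cells by these genes. The call of *Cd28* was lost without the CD45 library (0.66, adjusted p = 0.13) and without the ZsG-positive T cell library (0.62, 0.15). Of 13 glycolysis genes 4 were lower, *Slc16a3* (-1.52), *Pkm* (-0.88), *Pgam1* (-0.82) and *Pgk1* (-0.72), and all 13 lay below 0. None of them was called among cells with no *C1qa*, *C1qb* or *Lyz2* UMI, where the median was -0.30 in place of -0.46, or with at least 2 *Cd4* UMIs asked of members. Of 26 ribosomal protein genes 12 were higher and none lower (median 0.36), and with at least 2 *Cd4* UMIs asked of members none was called (median 0.43). *Gzmb* was lower (-2.02), at 696, 1701 and 2251 CPM in Foxp3+ cells, while *Ctsw* (1.52) and *Serpinb9* (1.05) were higher.

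**Figure D3:**
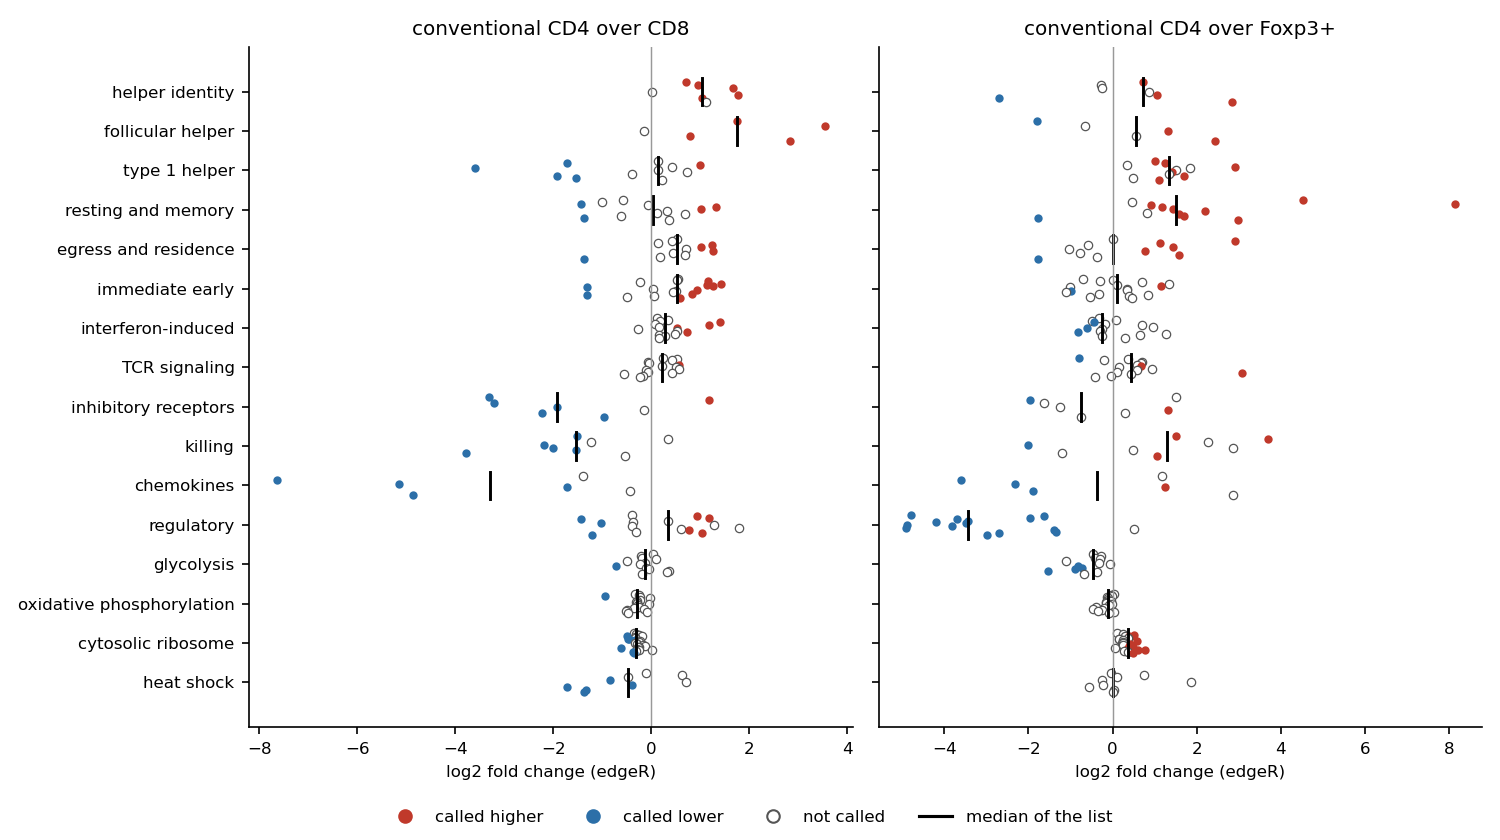
Log2 fold changes (edgeR, horizontal axis) of the genes of 16 lists in conventional CD4 over CD8 T cells (left) and over Foxp3+ cells (right). Each point is a gene, filled where called at an adjusted p under 0.05, and black bars are list medians, for example -3.29 for chemokines on the left and -3.44 for regulatory genes on the right. The rightmost point on the right, *Dapl1*, has no UMI in Foxp3+ cells, so its place is not a measured fold.

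Some genes differed from both comparison types, which share the members' sums and are given side by side. Of the genes tested 37 were higher in members than in both, 23 lower than in both, 18 higher than in CD8 and lower than in Foxp3+ cells, and 15 the reverse. The 37 include *Cd40lg* and *Ramp3*, as do the counts of genes higher than in each type. Both were proposed as markers from these cells, so their place in these counts is not a result. Their p-values are not given. *Itgb1*, the integrin beta-1 chain, was at 756, 489 and 624 CPM in members, 221, 224 and 212 CPM in CD8 T cells and 141, 370 and 94.2 CPM in Foxp3+ cells (1.39 and 1.98). *Btg2*, an antiproliferative gene, was at 1057, 958 and 1189 CPM, above 528, 538 and 442 CPM and above 495, 707 and 324 CPM (0.99 and 1.23). *Krt83*, *Tbc1d4*, *Casp4*, *Slamf1*, *Il7r*, *Klf2*, *Fosb* and *Emb* were others above both. Genes below both included *Ccl3*, *Ccl4*, *Gzmb*, *Il2ra*, *Tnfrsf9* and *Cd27*. In between lay *Ctla4*, *Tnfrsf18*, *Izumo1r*, *Lmna* and *Ass1*, which were lowest in CD8 T cells and highest in Foxp3+ cells. *Itgb1* and *Btg2* were picked for description after their values were seen.

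Several transcription factors and cytokines that define helper subsets were captured in few members, but *Rora* was in 62.1% and *Ifng* in 25.7%. *Tbx21*, the T-bet gene of type 1 cells, was at 30.0, 0, 21.1 and 13.3 CPM over the 4 libraries and was seen in 8.57% of members, against 21.4% of CD8 T cells. *Gata3*, which drives type 2 cells and is also used by other T cells, was at 86.5, 98.6 and 126 CPM against 34.5, 41.0 and 30.3 CPM in CD8 T cells (1.39) and 107, 140 and 128 CPM in Foxp3+ cells (-0.26, not called, and 0.02 with at least 2 *Cd4* UMIs asked of members). *Rora* was at 214, 310 and 352 CPM against 47.1, 68.5 and 62.3 CPM in CD8 T cells (2.17). No *Il4* or *Il5* UMI was found, while *Il13* was in 1 member, *Il17a* in 2 and *Il2* in 8. *Tnf* was in 8.57% of members, a share that cannot be read as expression since 84.0% of macrophage-like cells held it. A total of 45 *Csf2* UMIs came from 1 cell of the ZsG-negative CD45 library.

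Members varied between more effector and metabolic transcripts and more resting transcripts, in part along depth. A principal component analysis of 1000 variable genes in each library alone gave a first component with 7.53% of the variance over 43 cells of the ZsG-negative CD45 library, 5.12% over 56 cells of the ZsG-negative T cell library and 5.59% over 38 cells of the ZsG-positive T cell library. The second component held 4.32%, 4.17% and 4.49%, so separate groups of cells were not shown. Spearman's rho of the first component with UMIs per cell was 0.80, 0.31 and 0.40, so part of it was depth. Its deep end was led by *S100a4*, *Lgals1* and *Cox5a* in the CD45 library, *Actb*, *Psmb8* and *Lgals1* in the ZsG-negative and *Oaz1*, *Coro1a* and *Ms4a4b* in the ZsG-positive T cell library. Its shallow end was led by *Malat1*, *Il7r* and *Btg1* in the CD45 library, *Vps37b*, *Il7r* and *Emb* in the ZsG-negative and *Tiparp*, *Ppp2r5c* and *Sltm* in the ZsG-positive T cell library. The component ran with oxidative phosphorylation genes (rho 0.86, 0.66 and 0.58), with killing genes (0.66, 0.51 and 0.43) and with type 1 helper genes (0.57, 0.49 and 0.48), and against resting genes (-0.72, -0.48 and -0.36). UMIs per cell alone had rho of 0.71, 0.26 and 0.42 with oxidative phosphorylation genes and 0.52, 0.02 and 0.10 with killing genes. With type 1 helper genes it was 0.35, 0.03 and -0.07, and with resting genes -0.48, 0.18 and 0.24. These are descriptions over cells of 1 library, which share its depth range and the genes of the component.

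Within members, *Ifng* went with *Cxcr6*. *Cxcr6* was seen in 52.9% of members and 0.393% of macrophage-like cells. An *Ifng* UMI was found in 28 of 74 members with *Cxcr6* (37.8%) and in 8 of 66 without (12.1%), and after thinning in 20% and 3.57%. *Cd40lg* did not sort with it, since 23.1% of members with and 28.0% without *Cd40lg* held *Ifng*. These shares pool cells of 4 libraries and were not tested.

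The ZsG gates of the T cell sort were compared within members over 56 ZsG-negative and 38 ZsG-positive cells. With 1 library per gate the ratios have no test, and their intervals cover counting error only. Of the 2000 genes whose UMIs in the T cell libraries summed to 30 or more, 30 were at least 2-fold higher in ZsG-positive members (1.5%) and 42 at least 2-fold lower (2.1%), with a median log2 ratio of -0.01 over all genes. These numbers were 9 and 13 of 860 genes after thinning, 0 and 3 of the 569 genes with at least 100 UMIs, 38 and 40 of 923 genes with at least 2 *Cd4* UMIs asked of members, and 42 and 61 of 2000 as means of per-cell CPM. The intervals of several genes higher in members than in CD8 T cells included 0. *Maf* had a ratio of -0.02 (-0.56 to 0.50), *Icos* 0.04 (-0.32 to 0.38), *Ctla4* 0.07 (-0.41 to 0.54) and *Cd40lg* 0.15 (-0.64 to 0.88). *Ramp3* was higher in ZsG-positive members, at 345 against 186.5 CPM (0.89, 0.31 to 1.47), with 24.5% of its ZsG-negative UMIs from 1 cell.

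Most of the largest differences between the gates lay in genes with few UMIs, with *Gzma* as an exception. The 10 largest increases were *Kdm5a* (1.61, 0.61 to 2.70), *Cuta*, *Ighm*, *Uqcc3*, *Asap1*, *Jak2*, *Prrc2a*, *Alkbh5*, *Mapkapk3* and *Mien1*, with ratios down to 1.18. *Kdm5a*, a histone demethylase gene, was at 49.3 CPM in ZsG-negative and 153 CPM in ZsG-positive members. *Ighm*, an immunoglobulin gene of B cells, was at 49.3 and 133 CPM (1.42). *Gzma* was at 376.5 CPM in ZsG-negative members, 107 UMIs in 7 cells of which 54.2% came from 1 cell, and had no UMI in ZsG-positive members, at least 18.9-fold lower against a floor of 3 counts in that library. *Stmn1*, a tubulin regulator of dividing cells, was at 106 and 6.64 CPM (-3.43, -9.34 to -1.40), with 43.3% of the ZsG-negative UMIs from 1 cell. *Cxcl10*, an interferon-induced chemokine gene, was at 137 and 33.2 CPM (-1.93), and 51.3% of its ZsG-negative UMIs came from 1 cell. *Gcc2*, *Tab2*, *Hmgn5*, *Furin*, *Dut*, *Nfkbiz* and *Alyref* were the others, with ratios of -1.94 to -1.70.

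Before thinning, glycolysis and oxidative phosphorylation genes stood near 0 in members and above 0 in both other types. Over 10 glycolysis genes measured in all 3 types the median log2 ratio of ZsG-positive over ZsG-negative cells was 0.03 in members, 0.53 in CD8 T cells and 0.99 in Foxp3+ cells, and 5, 10 and 10 genes lay above 0. *Gapdh* was at 1175 and 1068 CPM in ZsG-negative and ZsG-positive members (-0.14, -0.42 to 0.14), while its ratio in CD8 T cells was 0.58, a difference of -0.71 (-0.99 to -0.43). For *Pkm* that difference was -0.93 (-1.44 to -0.43) and for *Ldha* -0.16 (-0.54 to 0.22). Over 17 oxidative phosphorylation genes the medians were -0.05, 0.24 and 0.40, with 7, 17 and 17 genes above 0. After thinning, the glycolysis median of members rose to 0.37, near the 0.48 of CD8 T cells, with 8 and 9 of the 10 genes above 0. The thinned oxidative phosphorylation medians were 0.09, 0.21 and 0.26. Before thinning the median over all 1924 shared genes was -0.01, -0.01 and -0.08, with 940, 928 and 846 genes above 0. Whether the types differed could not be tested with 1 library per gate.

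Medians of resting and interferon-induced genes lay nearer 0 in members than in CD8 T cells. Over 6 resting genes the medians were -0.26 in members, -0.97 in CD8 and -0.72 in Foxp3+ cells, and over 13 interferon-induced genes -0.23, -0.72 and -0.49. After thinning the interferon median of Foxp3+ cells was 0.14. *Klf2* was at 303 CPM in ZsG-negative and 577 CPM in ZsG-positive members (0.93, 0.49 to 1.38) but lower in ZsG-positive CD8 T cells (-0.83, difference 1.76, 1.30 to 2.21). *S1pr1* was at 222 and 212 CPM (-0.05) against a ratio of -1.25 in CD8 T cells, while *Il7r* was lower in ZsG-positive cells of both types (-0.67 and -1.40). *Ifng* was at 120 and 79.6 CPM in members (-0.55, -1.67 to 0.40) against a ratio of 2.25 in CD8 T cells, a difference of -2.80 (-3.74 to -1.87). In members 50% of its ZsG-negative UMIs came from 1 cell. In the CD45 sort the 3 ZsG-positive members were too few for ratios.

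**Figure D4:**
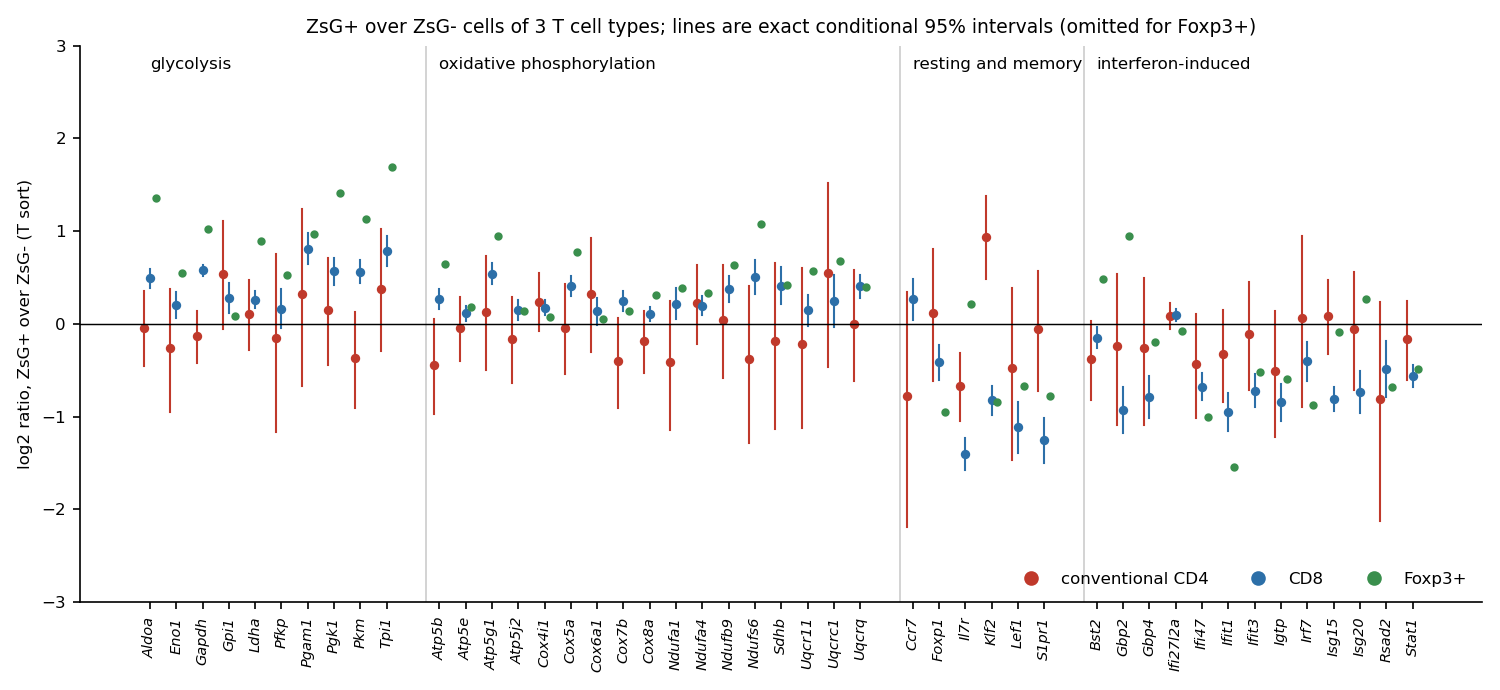
Log2 ratio of ZsG-positive over ZsG-negative CPM (vertical axis) in the T cell sort for genes of 4 lists measured in conventional CD4, CD8 and Foxp3+ cells. Points are ratios of 1 library to 1 library, and lines are exact conditional 95% intervals, left out for Foxp3+ cells. Members lie around 0 for glycolysis genes (median 0.03), where CD8 (0.53) and Foxp3+ cells (0.99) lie above it.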

How the data were processed

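The deposited files are 10x Genomics matrices of UMI counts per gene and cell, 1 matrix of the CD45 sort and 1 of the T cell sort, each holding both ZsG libraries. Per the labels and methods the authors aligned reads to mm10 with Cell Ranger 6.1.2 and joined the libraries with its aggr step (the CD45 matrix carries 7.0.0 in its header). Cells were kept with 1000 to under 6000 genes and under 10% mitochondrial UMIs (CD45 sort) or 50 to under 6000 genes and under 15% (T cell sort). No doublet caller was run, and an alternative left out the 5% of cells with the most UMIs. Depth, in UMIs per library and group, is given with the results.

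UMIs were summed per library and cell type where at least 20 cells were present, over the 30406 genes listed in both matrices (32285 and 31053 in each), and tested with edgeR 4.0.16 (quasi-likelihood test, filterByExpr, TMM, library as a block, Benjamini-Hochberg) in R 4.3.3, with DESeq2 1.42.0 as an alternative. The 12 gate genes were given no p, and the p-values of *Cd40lg* and *Ramp3*, which were in the fit, are not given. Shares and ratios carry exact 95% intervals computed with SciPy 1.17.1. The ZsG ratios added 0.5 to each sum. Per comparison the 10 genes with the largest change each way were named, among those called that were captured in 10% or more of cells in the higher type and had the same sign in each library; for the ZsG ratios, among genes with at least 30 UMIs and an interval without 0. The other named genes belong to 31 gene lists. The members and lists were chosen with earlier results of these data known. The edgeR fit and the ZsG ratios per gene with their intervals were tested on simulated data, and the other steps were not. Some genes that met these rules are not reported here.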

Additional observations from a re-analysis of the deposited data

Results flagged for a closer look

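In the T cell sort the median log2 ratio of ZsG-positive over ZsG-negative cells had the opposite sign in conventional CD4 T cells to that in both CD8 and Foxp3+ cells for 6 gene lists, over genes measured in all 3 types. With 1 library per gate these differences were not tested, and under the other order of the T cell libraries all signs are exchanged. For 9 type 1 helper genes the median was -0.12 in members, 0.10 in CD8 and 0.28 in Foxp3+ cells. Over all 13 type 1 helper genes measured in CD8 T cells, the CD8 median was -0.04, the same sign as in members. For 4 cytokine genes it was -0.19, 0.40 and 0.73. For 7 heat shock genes it was -0.076, 0.33 and 0.22, but 0.088, 0.23 and -0.16 after thinning to 2000 UMIs. The 17 oxidative phosphorylation genes gave -0.047, 0.24 and 0.40, and 0.09, 0.21 and 0.26 after thinning. The opposite direction was seen for 9 egress and residence genes, with 0.071 in members, -0.24 in CD8 and -0.70 in Foxp3+ cells, though after thinning all 3 were below 0 (-0.06, -0.25 and -0.11), and for 12 antigen receptor signaling genes, with 0.18, -0.13 and -0.36. After thinning the opposite sign held for the type 1 helper, cytokine and antigen receptor signaling genes.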

How the results depend on the processing

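The fit called 452 genes between members and CD8 T cells and 339 between members and Foxp3+ cells. The totals were 243 and 196 without the library as a block, 133 and 76 with at least 2 *Cd4* UMIs asked of members (124 and 65 of them shared with the fit as reported), and 228 and 246 after thinning to 2000 UMIs (174 and 186 shared), where 1822 genes could be tested. Leaving out 1 library gave 181 to 290 and 139 to 253 calls. With at least 1 UMI in any sum in place of filterByExpr, 14807 genes were tested. Against CD8 T cells 188 were then higher and 424 lower (203 and 249 as reported), and against Foxp3+ cells 180 and 242. DESeq2 called 310 and 279 genes, of which 306 and 274 were shared with edgeR. No call changed sign in any alternative, except 1 gene against CD8 T cells with at least 2 *Cd4* UMIs and 1 after thinning. *Gata3* against Foxp3+ cells, not called at -0.26, was 0.022 with at least 2 *Cd4* UMIs. The share ratio of members in the T cell sort, -0.59, was -1.51 with at least 2 *Cd4* UMIs. The 72 genes at least 2-fold apart between the ZsG gates became 22 after thinning and 3 among genes with at least 100 UMIs. The ZsG list medians after thinning, as per-cell means and without the cells with the most UMIs were alternatives chosen after seeing the data. In the CD45 sort no member of the ZsG-positive library was free of *C1qa*, *C1qb* and *Lyz2* UMIs, so that alternative gave no share ratio. No paired analysis was possible between the ZsG gates because each is 1 library; between cell types the library block pairs them. With 140 members, genes of few UMIs were limited by counting error, and intervals cover that error only.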
